A study of Homo sapiens with 14 samples.

Results

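In the human genome, THE1 and MST are the youngest branches of the MaLRs, the mammalian apparent LTR retrotransposons. Their integrants, the single copies left in the genome, were taken from the transposable element (TE) tables as every entry with a name starting with THE1 or MST. This gave 87627 integrants of 4570939 TE integrants, and 4502 of the 87627 held at least 1 read in at least 1 of 12 bulk RNA-seq libraries. On GRCh37, 43143 of them (49.2%) lay outside GENCODE genes, 40754 (46.5%) in introns and 2839 (3.24%) overlapped an exon. The remaining 891 lay on other contigs and were left out. Of all TE integrants, 38.2% lay outside genes and 56.9% in introns.

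The study followed H9, an established human embryonic stem cell (hESC) line, through differentiation to definitive endoderm and on to foregut, and blocked the LTR5 elements of the HERVK family by CRISPR interference. All libraries were made from polyadenylated RNA with a stranded kit. There were 2 libraries of undifferentiated hESC, whose labels do not say whether they carry a transgene, and 3 libraries of endoderm that carried dCAS9-KRAB, a catalytically dead Cas9 fused to a repressor domain, without a guide RNA. A further 3 endoderm libraries carried dCAS9-KRAB with a guide RNA (sgRNA) against LTR5. Endoderm was obtained in 3 days with Activin A at 100 ng/ml and the GSK-3 inhibitor CHIR-99021 at 5 µM and then 0.5 µM on the first and the second day. Foregut, with 3 more days of culture, gave 2 libraries without and 2 with the sgRNA. Every sample is labelled H9, but the culture notes of the foregut libraries also name H1, another hESC line. The foregut status labels go against the sample titles, and the titles were followed here. The foregut libraries came as a set of their own, so that library set and stage cannot be told apart. Nothing in the labels says that replicates are separate cultures, so p-values measure only the spread between these libraries, and in bulk RNA fewer cells of a type and less RNA per cell cannot be told apart.

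THE1 and MST spread in the ancestors of primates by copying RNA back into DNA, with enzymes probably borrowed from ERVL-type retroviruses, and none of their copies moves any more. A complete copy has a long terminal repeat (LTR) at each end of an internal sequence without a working envelope gene, and most copies are solo LTRs, left after recombination between the ends. The LTR carries the promoter and polyadenylation signal. THE1B LTRs are known as alternative promoters of human genes such as CSF1R in Hodgkin lymphoma. In embryonic cells, LTR elements are held silent by KRAB zinc finger proteins with TRIM28 and SETDB1 and by DNA methylation.

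Depth differed between the library sets. Gene reads ranged from 11583063 to 37152434 per library and mitochondrial genes held 8.30 to 34.7% of them. Reads on THE1 and MST numbered 4475 to 9287 per library, or 1.33 to 2.97% of TE reads. In hESC and endoderm 780 to 1133 members had a read, and 39.5 to 59.9% of these had a single read. In foregut 135 to 326 members had a read and 1.24 to 6.67% of these had a single one, with a median of 15 to 43 reads per detected member against 1 to 2 in the other libraries. All TEs showed the same split, with single reads at 46.5 to 65.0% of detected integrants in hESC and endoderm and 4.23 to 5.40% in foregut, so low-read members cannot be compared between foregut and the other libraries. Levels of the members are given as RPM, reads per 1000000 gene reads of the library, and those of genes as CPM, counts on the same scale. A feature was tested if it held 3 reads in at least 1 library, which correspond to 0.0807 to 0.259 RPM. In endoderm the 8 endoderm markers measured were all higher than in hESC, with summed levels of 31.2 to 42.4 CPM in hESC and 5464 to 6069 CPM in endoderm, and 4 of 7 pluripotency markers were lower. The 5 mesoderm markers measured rose as well, from sums of 2.39 to 3.48 CPM up to 697 to 1068 CPM. In foregut 2 of 5 foregut markers were higher than in endoderm, and 3 of 4 trophoblast-like markers were higher too, at 65.3 to 115 CPM in sum against 3.10 to 6.84 CPM. Whether these cells had a part in the results was not tested.

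Few integrants of any subfamily were detected. Outside genes, 140 of 9673 THE1B integrants (1.45%) held at least 3 reads in a library, as did 41 of 1555 THE1A (2.64%), 80 of 5799 THE1D (1.38%), 92 of 8960 MSTA (1.03%) and 34 of 3421 MSTD (0.994%). Integrants with THE1B-int reached 3.23% (71 of 2196), and those with THE1A-int 4.20% (29 of 691). In introns the shares were 2.14% for THE1B, 3.70% for THE1A and 7.22% for THE1A-int. No integrant with MSTA1 outside genes had a read, of 247.

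THE1 levels outside genes were higher in endoderm than in hESC, and the sum in introns was lower, which rested on 1 copy in C13orf42. Outside genes, THE1 stood at 24.3 and 25.1 RPM in the hESC libraries, and at 68.4, 62.7 and 65.7 RPM in endoderm. It was at 112, 94.9 and 107 RPM in endoderm with the sgRNA, 29.4 and 24.6 RPM in foregut, and 31.4 and 51.9 RPM in foregut with the sgRNA. The endoderm libraries were thus all above the hESC and foregut libraries, and those with the sgRNA above those without. In introns THE1 went the other way, from 169 and 168 RPM in hESC to 75.8, 90.4 and 83.7 RPM in endoderm, and it was at 73.5 and 61.6 RPM in foregut. Without the C13orf42 copy, the most-read member in introns, THE1 introns were at 54.4 and 54.6 RPM in hESC and 51.9, 60.9 and 60.4 RPM in endoderm, so that the groups overlapped. On exons, where reads of the element and of the host transcript cannot be separated, THE1 levels were 62.5 and 73.7 RPM in hESC, 102, 91.7 and 78.8 RPM in endoderm, and 38.2 and 36.8 RPM in foregut.

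MST, the older of the families, had levels outside genes that lay closer together, at 23.0 and 18.4 RPM in hESC, 27.4, 26.5 and 25.1 RPM in endoderm, and 28.9 and 30.9 RPM in foregut. In introns MST stood at 47.5 and 59.3 RPM in hESC, at 28.5, 22.8 and 21.7 RPM in endoderm, and at 57.7 and 43.7 RPM in foregut, so that endoderm was the low point. Endoderm was also the low point for reads of all TEs in introns. They were at 5576 and 4403 RPM in hESC, 4203, 3772 and 3674 RPM in endoderm, and 10933 and 7799 RPM in foregut. MLT1 in introns was instead lower in hESC, at 113 and 95.5 RPM, than in endoderm, at 137, 117 and 120 RPM. The share of THE1 and MST reads that lay outside genes was 10.8 to 12.0% in hESC, 27.4 to 29.9% in endoderm, 35.8 to 38.2% in endoderm with the sgRNA, and 23.9 to 26.3% in the 4 foregut libraries. Of all TE reads, the level outside genes was 5510 and 5777 RPM in hESC and 4467 to 6010 RPM in endoderm, with these groups overlapping. In foregut it was 3484 and 2424 RPM. MLT1, the oldest MaLR family, was at 64.2 and 66.1 RPM outside genes in hESC and at 115 to 126 RPM in endoderm, and the MLT2 and ERVL elements were at 19.1 to 19.7 and 24.1 to 28.2 RPM.

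**Figure D1:**
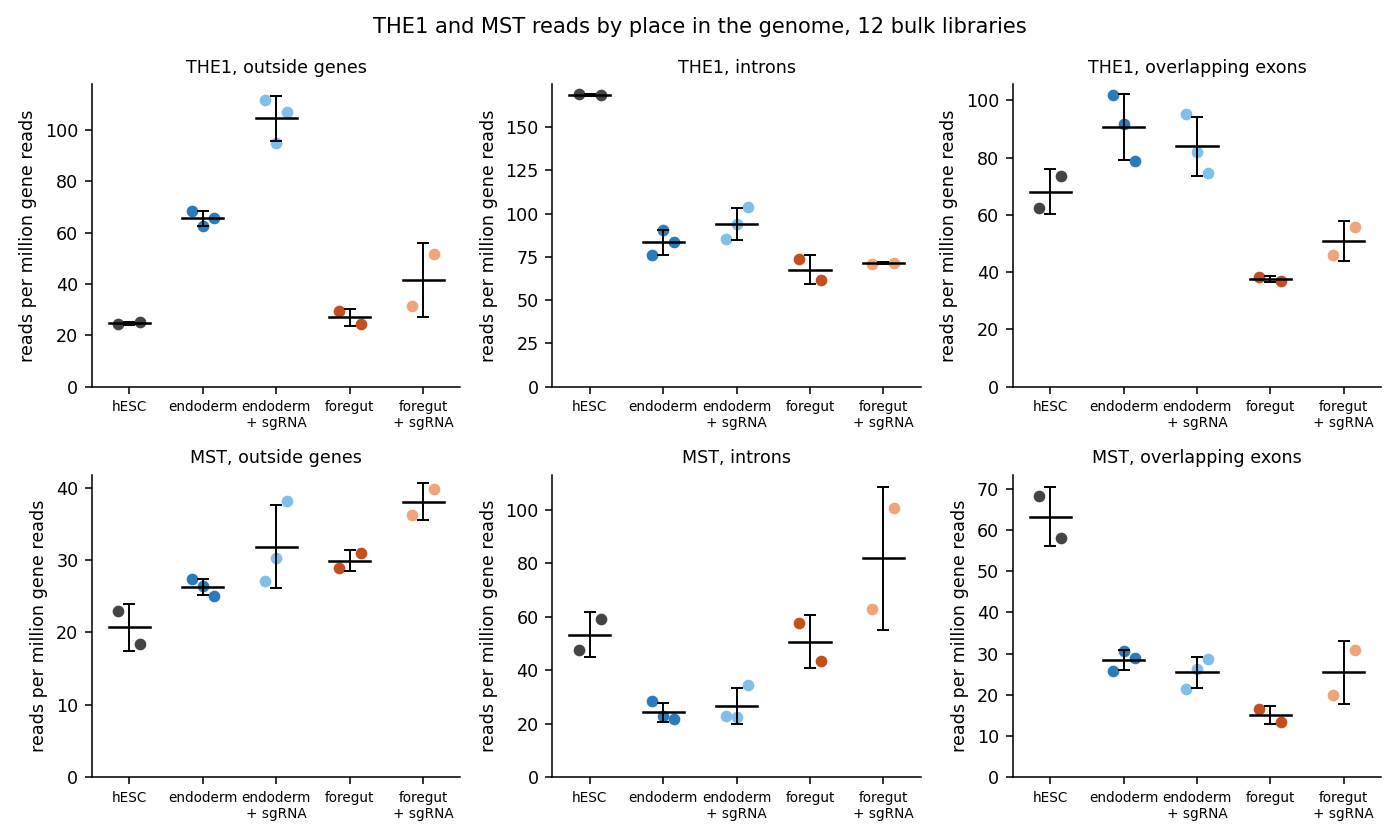
Summed level, in RPM, of THE1 and MST (rows of panels) outside genes, in introns and overlapping exons (columns) in the 5 groups; points are libraries, the line is the group mean and the bar the SD. THE1 outside genes was 24.7 ± 0.621 RPM in hESC (n = 2), 65.6 ± 2.85 in endoderm (n = 3) and 105 ± 8.72 in endoderm with the sgRNA (n = 3).

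Outside genes, levels were higher in endoderm also without the most-read locus. Without the most-read member, a THE1B copy on chromosome 14, THE1 and MST together outside genes were at 43.5 to 47.3 RPM in hESC and 73.0 to 78.0 RPM in endoderm. Members more than 10 kb from any gene, of which 980 had a read, were at 18.1 and 18.5 RPM in hESC, 57.4 to 62.5 RPM in endoderm and 18.2 to 21.8 RPM in foregut. Integrants made of LTR names only had outside levels of 19.1 ± 0.928 RPM in hESC (SD, n = 2) and 44.7 ± 3.03 RPM in endoderm (n = 3), and integrants with internal sequence 26.3 ± 1.72 and 47.2 ± 0.479 RPM. In introns, integrants with internal sequence went from 162 ± 7.86 to 58.5 ± 5.43 RPM, or from 42.1 and 54.1 RPM to 29.4, 34.6 and 34.8 RPM without the C13orf42 copy, while LTR names only went from 59.7 ± 0.0113 to 49.2 ± 1.84 RPM. These are sums over members, which share libraries and sometimes loci, and no test was run on them.

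To ask which subfamilies moved, reads were summed for each subfamily name and place and tested with edgeR's quasi-likelihood test among all such TE sums, with a call at a Benjamini-Hochberg adjusted p under 0.05. Between endoderm and hESC, 59 sums of THE1 and MST were tested, of which 9 rose and 8 fell. Among all 2557 TE sums, 10.1% were called higher and 8.84% lower. The median log2 fold change was −0.06 over the members' sums and −0.17 over all sums. The sums that rose were THE1B, THE1B-int (int marks internal sequence), THE1C, THE1D, MSTB and THE1-int outside genes, THE1C in introns, and THE1D and THE1D-int on exons. The 8 that fell were MSTA, MSTA-int, MSTB, MSTB-int and THE1D-int in introns, MSTA and MSTD on exons, and MSTB1-int outside genes. Without the most-read integrant of each sum, an alternative added after seeing the data, 6 rose and 7 fell, and 9 of the 17 calls were kept. Those lost were THE1C, MSTB, THE1-int and MSTB1-int outside genes, THE1C and MSTB-int in introns, and MSTA and THE1D on exons. MSTA-int in introns turned to 0.43 (adjusted p = 0.867) with integrants of a single name. MSTD on exons missed the threshold under several alternatives, with an adjusted p of up to 0.32. Outside genes, every called THE1 sum was higher in endoderm, and in introns 4 of the 5 sums that fell were MST.

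Among sums outside genes with at least 1 RPM in a group, THE1B, the subfamily with the most LTRs, and THE1B-int had the largest log2 fold changes. THE1B outside genes stood at 9.69 and 8.82 RPM in hESC and at 33.5, 33.2 and 35.3 RPM in endoderm, with SE 0.29 around a log2 fold change of 1.95 (adjusted p = 5.41e-10). THE1B-int outside genes was at 7.09 and 6.25 RPM in hESC and 29.1, 27.2 and 28.8 RPM in endoderm (log2 fold change 2.15, SE 0.29, adjusted p = 1.12e-11). The most-read integrant is counted in both sums, which share many integrants, and leaving it out lowered these log2 fold changes to 0.99 (adjusted p = 0.00569) and 0.90 (adjusted p = 0.0166). Over all alternatives of processing the THE1B sum ranged from 0.99 to 2.09 and its adjusted p from 5.78e-13 to 0.00569.

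The THE1D calls went in opposite directions by place. Outside genes it was at 5.69 and 7.31 RPM in hESC and 18.1, 14.2 and 15.6 RPM in endoderm (log2 fold change 1.37, SE 0.29, adjusted p = 4.86e-05). THE1D-int in introns went from 121 and 123 RPM in hESC to 26.7, 33.7 and 26.8 RPM in endoderm, and fell by 2.0 on the log2 scale (SE 0.25, adjusted p = 1.56e-13). Most of that intronic sum came from 1 copy in C13orf42, and without its most-read copy the sum still fell, by 1.09 (adjusted p = 0.00479). THE1C in introns was at 7.56 and 4.74 RPM in hESC and 13.5, 17.6 and 17.0 RPM in endoderm, with a log2 fold change that came to 1.44 (SE 0.29, adjusted p = 1.91e-05). The THE1C call rested on 1 copy in EGFLAM, since without it the log2 fold change was 0.48 (adjusted p = 0.306).

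The MST sums that fell lay mostly within genes. MSTB in introns was at 20.3 and 25.1 RPM in hESC and 9.76, 7.48 and 5.01 RPM in endoderm, and fell by 1.54 on the log2 scale (SE 0.27, adjusted p = 5.02e-07). MSTA in introns was at 17.4 and 26.0 RPM in hESC and 12.6, 9.52 and 10.4 RPM in endoderm (log2 fold change −0.91, SE 0.27, adjusted p = 0.00606). That call was lost with integrants of a single name (−0.46, adjusted p = 0.323), in the fit to all 12 libraries (−0.95, adjusted p = 0.144), and without the second hESC library (−0.68, adjusted p = 0.107) or the second endoderm library (−0.83, adjusted p = 0.0876). Outside genes MSTB rose, from 4.16 and 3.50 to 9.46, 9.43 and 8.37 RPM (log2 fold change 1.31, SE 0.32, adjusted p = 0.000502), but this too rested on 1 copy, near MAGEB17, without which the log2 fold change was 0.00 (adjusted p = 0.999). MSTB in introns fell also without its most-read copy, by 0.88 (adjusted p = 0.0419). With any 1 library left out, between 12 and 16 of the members' sums were called.

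**Figure D2:**
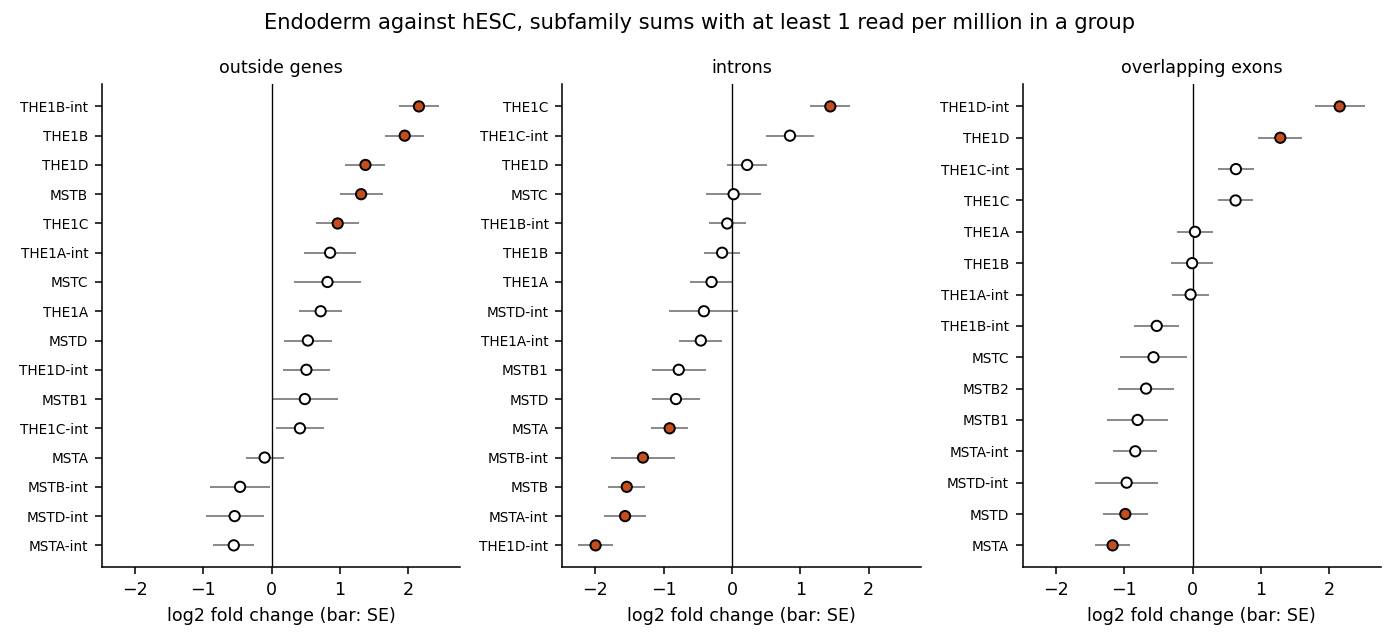
Log2 fold change of endoderm against hESC for each THE1 and MST subfamily sum with at least 1 RPM in a group, in 3 panels by place; bars are the SE and filled points have an adjusted p under 0.05. THE1B and THE1B-int outside genes lie farthest to the right of their panel, at 1.95 and 2.15, and THE1D-int in introns farthest to the left of its panel, at −2.0.

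At the level of single integrants, tested off exons where a call took both an adjusted p below 0.05 and a change of more than 2-fold, 710 members were tested between endoderm and hESC, of which 37 rose and 16 fell. Over all 31441 integrants tested, 2.4% were called higher and 0.929% lower. Their median log2 fold change was −1.41, and that of the members was 0.09. Of the tested THE1 integrants 34 of 419 rose (8.11%) and 8 fell (1.91%), and of the MST integrants 3 of 291 rose (1.03%) and 8 fell (2.75%). In introns 19 of 411 rose and 13 fell, and outside genes 18 of 299 rose and 3 fell. The 53 called members formed 49 loci (members within 5 kb of each other) on 18 chromosomes. The falls on chromosome 9, of both THE1 and MST, included copies of alike names and lengths that counted as separate loci. All 53 had groups that did not overlap. This adds no support to the calls, since the share among all called integrants was not counted. The fit to all 12 libraries called 10 members, integrants of a single name 27, a minimum of 10 reads in total 93, DESeq2 46 and voom 36. Without the second hESC library 30 members were called, and the first was then assumed to vary like the other libraries.

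The calls were also counted by structure, and neither these counts nor those by place have a matching share over all integrants. Of 405 tested members with LTR names only, 21 rose and 3 fell, whereas 16 of 305 with internal sequence rose and 13 fell. Several of these 13 were copies of alike names and lengths in ANKRD18B, ANKRD18A and CTSV on chromosome 9, and need not be separate events. Host genes of the called intronic members were looked up too, without a count over all called integrants to compare with. Of the 19 intronic members that rose, 10 lay in a host gene that also rose, 1 in a host that fell, 2 in hosts that were not called and 6 in hosts that were not tested. Of the 13 intronic members that fell, 4 lay in a host that fell, 8 in hosts that were not called and 1 in a host that was not tested. Most of those 4 were copies in the same gene, ANKRD18B.

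The THE1B copy on chromosome 14 (chr14:101760957-101763231, 2275 bp, minus strand), which has an LTR at both ends of an internal sequence, was the most-read member outside genes. It lay 16302 bp from the nearest gene, the lncRNA gene ENSG00000258497, and 982 kb from the nearest LTR5. It had 0 and 0 reads in hESC and 350, 296 and 291 reads in endoderm, or 17.8, 13.7 and 17.8 RPM. This was at least 250-fold higher in endoderm, taking 3 reads over the hESC group as the floor (adjusted p = 4.29e-41). In foregut the copy had 13 and 0 reads, and it fell by 6.29 on the log2 scale from endoderm (SE 0.67, adjusted p = 9.23e-14).

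A THE1B copy of the same structure in an intron of LINC00378 (chr13:61554299-61556550) had no read in hESC and 108, 178 and 115 reads in endoderm. It was at least 107-fold higher there (adjusted p = 8.72e-26), although the host lncRNA had 0 reads in every library. A further THE1B copy (chr4:171135075-171137514), 10172 bp from LINC01612, had 1 and 0 reads in hESC and 83, 134 and 83 reads in endoderm (adjusted p = 2.11e-19). LINC01612 itself went from 0.110 to 1.39 CPM, a log2 fold change of 3.68.

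The THE1C LTR in EGFLAM, which encodes an extracellular matrix protein similar to agrin, lay on the strand opposite to its host at chr5:38341291-38341648. It had no read in hESC and 108, 212 and 130 reads in endoderm, at least 120-fold higher (adjusted p = 1.43e-27). EGFLAM rose from 0.892 to 38.3 CPM, a log2 fold change of 5.49. The sources used here do not say whether strand was used in the counting, so these reads may be of either strand.

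Among solo LTRs outside genes, a THE1D LTR 16842 bp from the lncRNA gene ENSG00000258496 (chr14:87700220-87700605) had no read in hESC and 118, 95 and 74 reads in endoderm, at least 76.6-fold higher. An MSTB LTR 497 bp from MAGEB17, a cancer-testis antigen gene (chrX:16190084-16190490), had no read in hESC and 96, 139 and 80 reads in endoderm, at least 84.1-fold higher. These LTRs, and the copies in LINC00378, near LINC01612 and in EGFLAM, had no read in the foregut libraries without the sgRNA. With 3 reads over the foregut group as the floor, they were there 116-fold to 182-fold lower than in endoderm. These folds are no lower bounds, since detected members in those foregut libraries had medians of 17 and 15 reads and low-read members were rare.

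Among the members that fell, the THE1D-int stretch in an intron of C13orf42 (chr13:51749145-51749799, 655 bp) was the most-read of all members off exons, with 2696 and 2564 reads in hESC, or 115 and 114 RPM, and 470, 636 and 382 reads in endoderm, or 23.9, 29.5 and 23.3 RPM. It fell by 2.09 on the log2 scale (SE 0.31, adjusted p = 1.58e-09), while C13orf42, on the other strand, went from 13.3 to 9.38 CPM (log2 fold change −0.43). In GENCODE v44 this stretch also lies in an intron of the lncRNA gene ENSG00000289894, on its own strand, and the MSTA LTR that follows it (chr13:51749878-51750261) overlaps an exon of that lncRNA. The MSTA LTR stood at 49.1 and 37.9 RPM in hESC and 13.1, 18.0 and 15.1 RPM in endoderm, so that both neighbours were lower in endoderm in every library. ENSG00000289894 had no row in the gene tables.

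An MSTB LTR in an intron of BDNF-AS, the antisense gene of the neurotrophin gene BDNF (chr11:27638176-27638592), had 335 and 437 reads in hESC and 125, 99 and 34 in endoderm, and fell by 1.88 on the log2 scale (SE 0.38, adjusted p = 4.58e-05, but 0.461 in the fit to all 12 libraries). BDNF-AS was at 0.788 CPM in hESC and 0.955 CPM in endoderm on average. A THE1B copy in an intron of the lncRNA gene ENSG00000287392 (chr4:93173977-93175337) had 171 and 267 reads in hESC and 13, 3 and 6 reads in endoderm, and fell by 4.52 (SE 0.49, adjusted p = 6.92e-18). Another, 9364 bp from the cytochrome P450 gene CYP2B6 (chr19:41485662-41487823), had 53 and 23 reads in hESC and 2, 3 and 0 in endoderm, and fell by 4.14 (SE 0.78, adjusted p = 1.05e-05, but 0.574 in the fit to all 12 libraries). CYP2B6 fell by 4.92, from 13.2 to 0.393 CPM. A THE1D-int stretch in ANKRD18B (chr9:33594904-33596495), with 16 and 38 reads in hESC and 6, 1 and 5 in endoderm, fell by 2.34 (SE 0.74, adjusted p = 0.0471), but this region has near-identical copies on chromosome 9, its adjusted p rose to as much as 0.58 under the alternatives, and its value is uncertain.

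**Figure D3:**
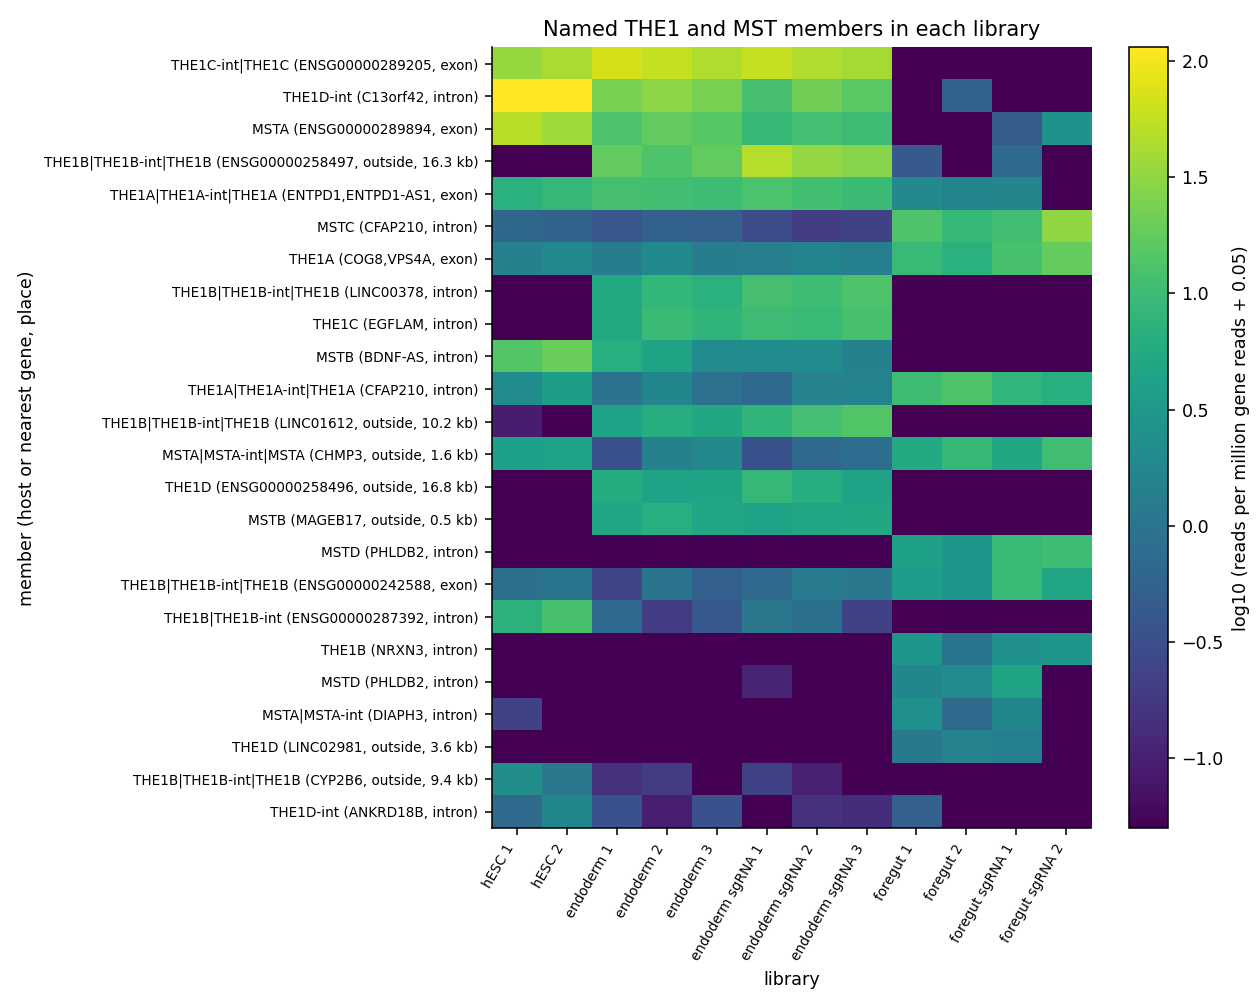
Heat map of log10(RPM + 0.05) for the 24 named members (rows, with the host or nearest gene and the place) in the 12 libraries (columns). The copies in EGFLAM and LINC00378 have no read in hESC and foregut and are at 7.76 and 6.93 RPM on average in endoderm, and the MSTC LTR in CFAP210 is at 11.1 RPM in foregut and 0.452 RPM in endoderm.

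On exons, the most-read member was a THE1C copy with internal sequence on chromosome 2 (chr2:188903874-188904896, 1023 bp), which overlaps an exon of the lncRNA gene ENSG00000289205 on its own strand within LINC01090, on the opposite one. It stood at 33.9 and 43.3 RPM in hESC, at 69.1, 57.4 and 45.8 RPM in endoderm and at 57.7, 45.9 and 40.2 RPM in endoderm with the sgRNA. It had no read in any of the 4 foregut libraries. With 3 reads as the floor it was 1352-fold lower in foregut than in endoderm, both without the sgRNA. That fold is no lower bound either, since low-read members were rare in foregut. The THE1A copy on an exon of ENTPD1, which encodes the ectonucleotidase CD39, also overlaps exons of ENTPD1-AS1 and ENSG00000240527. This copy lies on the strand opposite to ENTPD1. It was at 6.97 and 8.64 RPM in hESC, 10.4 to 11.8 RPM in the 3 endoderm libraries, and 1.84 and 1.59 RPM in foregut. A THE1A LTR on exons of COG8 and VPS4A (chr16:69355849-69356200) went the other way, with 1.44 and 1.82 RPM in hESC, 1.22, 1.95 and 1.22 RPM in endoderm and 9.56 and 6.86 RPM in foregut. A THE1B copy on an exon of ENSG00000242588 (chr7:128301462-128303583) was at 0.891 ± 0.119 RPM in hESC (SD, n = 2), 0.540 ± 0.365 RPM in endoderm (n = 3) and 3.23 ± 0.498 RPM in foregut (n = 2). Members on exons were not tested one by one.

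Comparing foregut with endoderm, both without the sgRNA, asked what became of these levels with further differentiation. The endoderm libraries are the same as above. Of 60 members' sums tested, 7 rose and 9 fell, against 16.3% called higher and 5.61% called lower among all sums. The median log2 fold change was −0.17 over the members' sums and 0.61 over all sums. Those that rose were MSTC, MSTD, MSTD-int, THE1A and THE1A-int in introns, THE1B-int on exons and MSTA-int outside genes. Those that fell were THE1B, THE1B-int, THE1D and THE1D-int outside genes, THE1D-int in introns, and MSTA, THE1A-int, THE1C and THE1C-int on exons. Without the most-read integrant of each sum 3 rose and 1 fell, and 2 of the 16 calls were kept, MSTD in introns and THE1B-int outside genes. Leaving out the first or the second foregut library gave 29 and 28 calls.

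THE1B outside genes, at 33.5, 33.2 and 35.3 RPM in endoderm, was at 9.59 and 9.23 RPM in foregut, close to its hESC level, and fell by 1.84 on the log2 scale (SE 0.31, adjusted p = 0.000906). THE1D outside genes was at 5.02 and 5.89 RPM in foregut and fell by 1.54 (SE 0.32, adjusted p = 0.00433). THE1C-int on exons was at 69.5, 58.1 and 46.2 RPM in endoderm and 0.766 and 0.969 RPM in foregut, in endoderm nearly all of it the chromosome 2 copy, and fell by 6.05 (SE 0.40, adjusted p = 1.01e-06). Each of these sums had foregut libraries below every endoderm library. Outside genes the same held for reads of all TEs, at 3484 and 2424 RPM in foregut and 4467 to 6010 RPM in endoderm. It held for MLT1 as well, at 93.5 and 80.6 RPM in foregut and 115 to 126 RPM in endoderm. MLT2 and ERVL elements outside genes overlapped, at 32.5 and 24.7 RPM in foregut and 24.1 to 28.2 RPM in endoderm. Without their most-read copies THE1B and THE1D outside genes had log2 fold changes of −0.92 (adjusted p = 0.0566) and −0.999 (adjusted p = 0.0519), and THE1C-int on exons turned to 0.80 (adjusted p = 0.501). With integrants of a single name THE1B outside genes was at −0.038 (adjusted p = 0.948), and THE1C-int on exons turned to 7.25.

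MSTC in introns rose from 1.78, 1.90 and 1.59 RPM in endoderm to 16.0 and 10.0 RPM in foregut (log2 fold change 2.91, SE 0.38, adjusted p = 0.000181), but without its most-read copy the log2 fold change was 0.57 (adjusted p = 0.467). MSTD in introns was at 2.14, 1.44 and 2.63 RPM in endoderm and 13.4 and 11.3 RPM in foregut (log2 fold change 2.59, SE 0.38, adjusted p = 0.000427). Over all alternatives, the one without the most-read copy included, the MSTD value lay between 1.69 and 2.90 with an adjusted p of at most 0.00334. THE1A, the youngest THE1 subfamily, was at 3.31, 5.80 and 5.98 RPM in introns in endoderm and 15.9 and 18.2 RPM in foregut (log2 fold change 1.76, SE 0.35, adjusted p = 0.00321). The THE1A call was lost without the most-read copy (0.40, adjusted p = 0.514), with library sizes from TE reads (0.87, adjusted p = 0.1) and with integrants of a single name (1.08, adjusted p = 0.239). Reads of all TEs in introns were higher in foregut too, at 10933 and 7799 RPM against 4203, 3772 and 3674 RPM in endoderm. MLT1 in introns was at 137, 117 and 120 RPM in endoderm and 229 and 175 RPM in foregut.

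Of 769 integrants tested between foregut and endoderm, 19 rose and 26 fell, against 3.6% and 1.51% of all 44916 integrants. Over the members the median log2 fold change was 0.92, and over all integrants tested it was 4.08. THE1 gave 8 rises and 23 falls of 455, and MST 11 rises and 3 falls of 314. Many of the falls were of members with a mean under 1 RPM over the compared libraries, down to 0.4 RPM. Low-read members were rare in foregut and cannot be compared between these groups, as given above, which limits these counts. With library sizes taken from TE reads, the split was 5 higher and 105 lower. DESeq2 called 5 members, voom 57 and integrants of a single name 23. Leaving out the first foregut library gave 160 calls and leaving out the second gave 207, whereas leaving out an endoderm library gave 25 to 29. All 26 that fell and 16 of the 19 that rose had groups that did not overlap, again without a count over all called integrants to compare with. The 45 called members formed 42 loci on 17 chromosomes. Of the 26 that fell, 13 lay outside genes, 7 in hosts that fell, 3 in hosts that were not called and 3 in hosts that were not tested. Of the 19 that rose, 6 lay outside genes, 4 in hosts that rose, 4 in hosts that fell, 4 in hosts that were not called and 1 in a host that was not tested. Hosts of all called integrants were not counted for comparison.

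Most MSTC reads in foregut lay on 1 LTR in CFAP210, a gene of motile cilia and flagella (chr2:170542913-170543331), on the strand of its host. It was at 0.356, 0.511 and 0.489 RPM in endoderm and 13.4 and 8.77 RPM in foregut (log2 fold change 4.63, SE 0.58, adjusted p = 1.90e-13). A neighbouring THE1A copy in the same gene (chr2:170543372-170545764) was at 0.915, 1.72 and 0.855 RPM in endoderm and 10.4 and 13.5 RPM in foregut (log2 fold change 3.36, SE 0.52, adjusted p = 1.42e-08). CFAP210 rose with them, from 0.458 to 7.43 CPM (log2 fold change 4.02).

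The largest rises included a pair of MSTD pieces in an intron of PHLDB2, which encodes a cytoskeletal adaptor protein. The first (chr3:111499264-111499471) had no read in the 8 hESC and endoderm libraries, 137 and 110 reads in foregut and 303 and 213 reads in foregut with the sgRNA, at least 67.9-fold higher in foregut than in endoderm. The second (chr3:111498949-111499104) had 56 and 75 reads in foregut, at least 36.0-fold higher, but 143 and 0 reads in foregut with the sgRNA. PHLDB2 fell, from 44.7 to 16.2 CPM. Both pieces also lie within a second gene, PLCXD2. A THE1B LTR in NRXN3, a gene of synaptic adhesion (chr14:80056443-80056756), had no read in endoderm and 93 and 36 reads in foregut, at least 35.5-fold higher, and NRXN3 rose by a log2 fold change of 2.49. An MSTA copy with internal sequence in DIAPH3 (chr13:60605138-60605866) had 78 and 25 reads in foregut and none in endoderm, at least 28.3-fold higher, while DIAPH3 fell by 1.09. That copy also lies within DIAPH3-AS1. A THE1D LTR 3561 bp from LINC02981 (chr7:26540776-26541159) had 36 and 56 reads in foregut and none in endoderm, at least 25.3-fold higher, and LINC02981 rose by 3.80. An MSTA copy 1578 bp from CHMP3 (chr2:86726662-86728975) had 93 and 98 reads in hESC, 6, 30 and 30 in endoderm and 185 and 326 in foregut, so that endoderm was its low point in every library. The 5 rises from no read had adjusted p from 2.14e-12 to 0.000359 in edgeR, but from 0.102 to 0.137 in DESeq2, which called none of them. Over all alternatives the adjusted p reached 0.102 for the first MSTD piece, 0.441 for the NRXN3 LTR and 0.445 for the second MSTD piece. It reached 0.766 for the members in DIAPH3 and near LINC02981.

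The sgRNA against LTR5 was compared with no sgRNA at each stage. In endoderm none of 58 members' sums was called, against 0.0399% of all sums called higher. At an unadjusted p under 0.05 there were 7, or 12.1%, against 6.18% of all sums. DESeq2 called 1 of the 3 it called among all sums, and voom called 0. THE1B outside genes was nonetheless higher in every library with the sgRNA, at 70.6, 58.8 and 63.5 RPM against 33.5, 33.2 and 35.3 RPM, a log2 difference of 0.95 (SE 0.23, adjusted p = 0.113). THE1B-int outside genes was at 62.5, 51.5 and 53.4 RPM against 29.1, 27.2 and 28.8 RPM (log2 difference 1.01, SE 0.24, adjusted p = 0.113). MLT1 outside genes was also higher in every library with the sgRNA, at 145, 134 and 166 RPM against 126, 118 and 115 RPM. The same held for MLT2 and ERVL elements, at 31.7, 31.7 and 41.3 RPM against 28.2, 24.1 and 26.5 RPM. Reads of all TEs outside genes overlapped between these groups. Over the alternatives the adjusted p of the THE1B sum ran from 0.0451 to 0.999. The median log2 difference was 0.19 over the members' sums and 0.24 over all sums.

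Of 653 integrants tested for the sgRNA in endoderm none was called, against 0.00848% of all integrants called lower and 0 called higher. At an unadjusted p under 0.05 there were 35, or 5.36%, against 2.85% of all integrants. DESeq2 called 1 member of 12 integrants in all, and voom 2 of 25. The THE1B copy on chromosome 14 had 806, 642 and 322 reads with the sgRNA, or 48.4, 32.7 and 27.8 RPM, against 17.8, 13.7 and 17.8 RPM without it. All libraries with the sgRNA were above those without. The log2 difference was 1.19 (SE 0.32, adjusted p = 0.298), with an adjusted p of 0.0267 in DESeq2 and of 2.85e-06 in voom and a range up to 0.746 over the alternatives. This copy lies far from any LTR5, as given above. The THE1B copy near LINC01612 had 132, 225 and 164 reads with the sgRNA, and that in LINC00378 had 195, 204 and 153.

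In foregut none of 56 sums was called for the sgRNA, where 0.124% of all sums were called lower, and none of 638 integrants, where 0.00595% of all integrants were called in either direction. The counts at an unadjusted p under 0.05 were 3 sums (5.36%, against 2.84% of all sums) and 3 integrants (0.47%, against 0.492% of all integrants). DESeq2 called none of the members, with 5 sums and 0 integrants called in all, and voom 0 of 20 sums and 3 of 391 integrants. THE1B-int outside genes was at 8.10 and 14.8 RPM with the sgRNA and 3.43 and 4.44 RPM without, a log2 difference of 1.53 (SE 0.66, adjusted p = 0.959). The median log2 difference over the members' sums was 0.26, and 0.21 over all sums.

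An interaction term tested whether the sgRNA acted unequally at the 2 stages. None of 60 sums and none of 1148 integrants was called, against 0.435% of all sums and 0.00589% of all integrants, with 2 sums (3.33%, against 10.6% of all) and 21 integrants (1.83%, against 1.03%) at an unadjusted p under 0.05. DESeq2 called none of the members, with 51 sums and 0 integrants in all, and voom 0 of 41 sums and 9 of 1398 integrants. For THE1B outside genes the effect in foregut minus that in endoderm was −0.17 on the log2 scale (SE 0.42, adjusted p = 1), so an effect of different size at the stages was not detected.

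Genes that silence LTR elements were looked at beside the members. Of 21 such genes tested, none rose and 4 fell between hESC and endoderm. Of all 20818 genes, 2969 rose and 11.8% fell. DNMT3B, a de novo DNA methyltransferase, went from 1212 to 211 CPM (log2 fold change −2.45). HELLS, a remodeller needed for methylation of repeats, went from 107 to 26.1 (log2 fold change −1.96), SUV39H2, a histone H3 lysine 9 methyltransferase, from 61.3 to 18.3 (−1.67), and MORC2, a partner of the HUSH silencing complex, from 70.1 to 32.3 (−1.03), a change under 2-fold without the second hESC or the first endoderm library. TRIM28, the corepressor of KRAB zinc finger proteins, went from 1209 to 717 CPM, a log2 fold change of −0.68 that stayed under the fold threshold (adjusted p = 0.00521). Between endoderm and foregut none rose and 4 fell, ATF7IP, SUV39H1, DNMT1 and DNMT3B. Of all 21466 genes, 2983 rose and 14.9% fell there. With the sgRNA none of 21 in endoderm and none of 20 in foregut was called, against 0.0343% and 0.15% of all genes, and none had an unadjusted p under 0.05, against 5.14% and 3.51% of all genes. Whether these genes had a part in the levels of the members was not tested.

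Intronic members with reads lay mostly on the strand of their host gene. The tables hold no strand, so each member's strand was rebuilt from the GRCh37 sequence at its position. Of 38021 intronic members with hosts on 1 strand only, 15729 (41.4%) lay on the strand of their host. Of the 728 that held at least 3 reads in a library, 544 (74.7%) lay on the host's strand. The share was 74.3% for THE1, against 43.5% of all intronic THE1, and 75.2% for MST, against 39.2%. Among members with LTR names only it was 71.5% (40.8% of all such members), and among those with internal sequence 80.7% (44.6%). By library the share was 84.2 and 82.4% in hESC, 71.0, 69.9 and 66.1% in endoderm, 65.7 to 75.0% in endoderm with the sgRNA, and 70.7 to 76.4% in foregut. Of the intronic members called higher in endoderm, 6 of 18 lay on the host's strand, and of those called lower 8 of 12. Members without a run of 6 A gave 73.4%, against 42.3% of all such members. These shares are descriptions, since members of 1 gene share its reads.

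**Figure D4:**
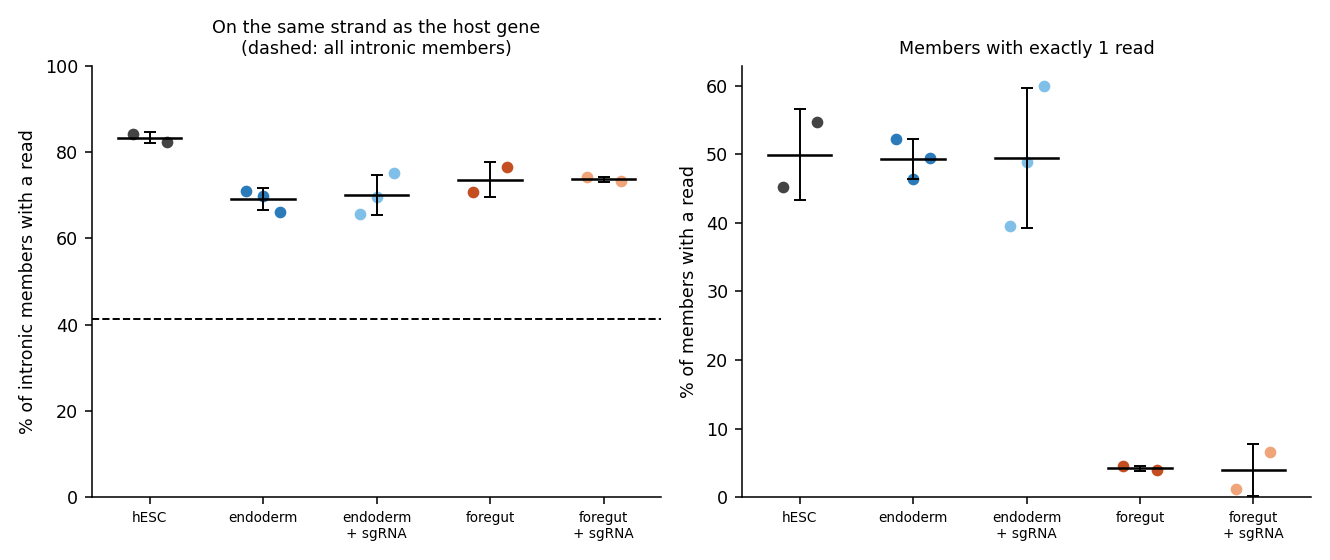
Left, the percent of intronic THE1 and MST members with a read that lie on their host's strand in each library, with a dashed line at the 41.4% of all intronic members. Right, the percent of detected members that held exactly 1 read, which is 39.5 to 59.9% in hESC and endoderm libraries and 1.24 to 6.67% in foregut libraries.

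Sequence motifs were counted in the 51324 single LTRs of 300 to 450 bases off exons, with hits on both strands except for TATAAG, which was read in the sense direction. The GATA-type AGATAA was in 17.1% of all these LTRs, in 14.2% of the 703 with at least 3 reads in a library, and in 4 of the 21 that rose in endoderm (19%). It was most frequent in THE1A and THE1B, at 34.2% and 33.3%, and rarest in MSTA, at 4.14%. TAATCC, a motif of the OTX and GSC type, was in 46% of all, in 45.1% of those with reads and in 9 of 21 (42.9%) of those that rose, and ranged from 3.81% of THE1A to 87.7% of MSTC. TGTTTAC, a forkhead-type motif, was in 1.33% of all, 2.7% of those with reads and 0 of 21. TATAAG was in 26.5%, 24.9% and 8 of 21 (38.1%), with 65.7% of THE1C LTRs and 7.2% of MSTB LTRs holding it. A match of letters is no binding site, and no test was run on these shares.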

How the data were processed

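The authors made stranded mRNA libraries, aligned them with HISAT2 on hg19, and used featureCounts to count unique alignments over genes and TEs together, after LTR and internal fragments of 1 integrant had been merged. Raw counts for each gene and each integrant were deposited, and the strand setting of the counting is not given in the sources used here. Integrants were placed on GRCh37 with GENCODE v44lift37, which need not be the authors' annotation. TE starts count from 1, as 58.6% of 48953 single LTRs of full length then begin and end with TG and CA. Names that join subfamilies counted for each name.

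Counts were tested with edgeR 4.0.16 in R 4.3.3 (quasi-likelihood, 2-sided, library sizes and TMM factors from genes, only the compared groups in a fit, features with at least 3 reads in a library), with limma 3.58.1 (voom) and DESeq2 1.42.0 as alternatives. Beyond these, other scalings, filters and fits and each library left out were tried. The code was tested on simulated data. Members and lists were chosen with earlier results of these data known. Members were named by rule: the 10 with the highest mean level off exons and 5 on exons, and, in each of the comparisons of endoderm with hESC and of foregut with endoderm, the 5 rises and 5 falls of largest size among called members with a mean of at least 0.5 RPM and groups that do not overlap, with every subfamily name, the host or nearest genes and the silencing genes. Reads of PCR products without molecular identifiers are not independent molecules, so floors cover counting error only. The single-nucleus gastruloid data were not used here. Sequences of single members are not reported here.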

Additional observations from a re-analysis of the deposited data

How the results depend on the processing

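Fits to all 12 libraries, alternative scalings, filters and tools and each library left out were tried for the 5 comparisons. Numbers below are calls among the members, and the cause of each change was not tested unless fewer libraries or integrants entered by construction. For subfamily sums, leaving out 1 library gave 12 to 16 calls (17 with all) for endoderm against hESC, 12 to 29 (16) for foregut against endoderm, and 0 to 1, 0 to 2 and 0 to 6 (0 each) for the sgRNA in endoderm, in foregut and the difference of the sgRNA effects. The single sum appeared without the third endoderm library with the sgRNA, and the 2 and 6 sums without the first foregut library with it. For integrants the ranges were 30 to 47 (53), 25 to 207 (45), 0 to 2, 0 to 1 and 0 to 1 (0 each). For silencing genes they were 3 to 5 in both stage comparisons (4 each).

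Among the other alternatives, the fit to all 12 libraries gave 10 sums and 10 integrants for endoderm against hESC, and 1 sum and 1 integrant for the sgRNA in foregut. Integrants of single names gave 10 sums and 23 integrants for foregut against endoderm, 27 integrants for endoderm against hESC and 1 sum for the difference of sgRNA effects. Without the most-read integrant of each sum there were 4 sums for foregut against endoderm. DESeq2 called 5 integrants for foregut against endoderm, and 1 sum and 1 integrant for the sgRNA in endoderm. Voom called 2 integrants for the sgRNA in endoderm, 3 for the sgRNA in foregut and 9 for the difference. Library sizes from TE reads gave 110 integrants for foregut against endoderm, 5 higher and 105 lower, and 1 for the difference. No filter on low counts gave 2 sums for the sgRNA in endoderm, and a minimum of 10 reads in total gave 93 integrants for endoderm against hESC.

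Samples with the same replicate number did not deviate together throughout (correlations −0.209 to 0.179), so the numbers were not taken as pairing. The replicate block gave 25 integrants for endoderm against hESC, 10 for foregut against endoderm and 1 sum for the sgRNA in endoderm. With 15 and 16 sums in the stage comparisons, it moved no other count of calls by over 1.5 times. Crossing the numbers in foregut gave 0 sums and 0 integrants for the sgRNA, as did the block as numbered.

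Summed levels moved with the scale. Without mitochondrial reads in the library size, means in hESC, endoderm, endoderm with the sgRNA, foregut and foregut with the sgRNA were 57.9, 105, 153, 74.7 and 111 RPM outside genes and 167, 136, 123, 69.1 and 106 RPM on exons. In introns they were 282, 123, 156 and 214 RPM in hESC, endoderm, foregut and foregut with the sgRNA. With single names only they were 19.3, 45.2, 57.7, 28.5 and 38.6 RPM outside genes, 177, 76.3, 79.6, 75.8 and 114 RPM in introns and 61.9, 33.2, 32.5, 33.6 and 51.1 RPM on exons. Without the most-read member they were 75.5 and 100.1 RPM outside genes in endoderm without and with the sgRNA, and 108, 82.1 and 104 RPM in introns in hESC and those groups. More than 10 kb from a gene they were 18.3, 60.5, 101, 20.0 and 31.7 RPM.

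Of the single sums, members and genes, 939 comparisons with an alternative kept direction and side of the threshold, 99 lost the call, 8 gained it and 15 changed sign. The sign changed for MSTA-int in introns with single names (endoderm against hESC, 0.43). For foregut against endoderm it changed for MSTA-int outside genes without its most-read integrant (−0.0082), THE1C-int and THE1C on exons with single names (7.25 and 2.89) and without the most-read integrant (0.80 and 2.095), and THE1D-int in introns without it (0.37). THE1B outside genes turned to −0.11 for the sgRNA in foregut with single names. For the difference of sgRNA effects it turned to 0.094 without the most-read integrant and lay between −0.31 and 0.018 with a library left out, the latter without the first endoderm library with the sgRNA. The THE1A copy in CFAP210, not called for the sgRNA in endoderm, turned to −0.12 with TE library sizes and ran from −0.096 to 0.46 with a library left out, below 0 without the first or the third endoderm library and without the second or the third with the sgRNA.

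Depth limits single members most, since 39.5 to 59.9% of those detected in an hESC or endoderm library held 1 read. With 2 foregut libraries, leaving out 1 leaves a lone library that is assumed to vary like the endoderm libraries.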
